A study of Rattus norvegicus with 10 samples.

Results

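The step from 4 h to 8 h after burn injury was described in rat liver. The 2 arrays titled 8 h were set against the 2 arrays titled 4 h, which are 4 of the 10 arrays of the series, and the control arrays took no part in the contrast. Every array holds total RNA of rat liver. The 5 groups of 2 arrays each are sham animals, labelled 0 h, and burned animals at 1, 4, 8 and 24 h. The labels give no strain, age, burn size or clock time of sampling, and leave unsaid if both arrays of a time point came from separate animals. A p-value here therefore rests on array-to-array spread alone, part or all of which could be technical.

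The liver answers an injury in waves. Stress hormones, the glucocorticoids and glucagon among them, act within the first hours and switch on enzymes that turn amino acids and fat into fuel. Cytokines released at the wound, interleukin-6 above all, then reach the hepatocyte and raise the acute phase proteins, which are secreted into plasma and bind heme, iron, bacterial products or proteases. The clock genes, which form a daily feedback loop, and the sterol and bile acid genes run beside this response in the same cells.

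All 12 hepatocyte markers on the array were tested, and albumin (Alb) read 42718.7 and 65287.3 on the 4 h arrays and 87926.3 and 94416.8 on the 8 h arrays, so the labelled tissue was borne out. The deposited values are linear intensities, 1 per probe set and array, and each array had a trimmed mean of 500.9 to 501. Intensities under 36.4 were raised to that floor and put on the log2 scale, and a fold against 2 arrays at the floor is written "at least". Of the 9 hybridisation control probe sets, bacterial and phage transcripts added in known amounts, all 9 were higher on both 8 h arrays than on both 4 h arrays, by a median of 1.07 on the log2 scale (range 0.92 to 1.19). Their geometric mean was 3010.4 and 3456.4 at 4 h, 6446.3 and 7173 at 8 h, and 3738.5 to 5317.7 on the other 6 arrays. Every change below is thus relative to the bulk of its array, and on the scale of those controls a rise of less than about 1.07 would be a fall, and of the 37 gene lists described below only that of the exocrine pancreas keeps a median above 0 there (1.30). The GAPDH 3′ to 5′ ratio was 1.06 and 1.46 at 4 h and 1.45 and 1.36 at 8 h, and that of beta-actin was 1.03 and 0.77 at 4 h and 1.25 and 1.46 at 8 h. The part of these controls in the results was not tested.

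Relative to the bulk of each array, transcripts of secreted defence proteins rose between 4 h and 8 h, led by lipocalin-2 (Lcn2) and alpha-1-acid glycoprotein (Orm1). Those of digestive enzymes of the exocrine pancreas rose too, from summed levels below sham at 4 h. Transcripts that fell included 6 of 16 glucocorticoid-induced genes tested, the sodium pump subunit Atp1b1 and heme oxygenase (Hmox1). The growth regulator Myc fell on its dimmer probe set and was not called on the brighter. Of 5254 probe sets tested, 429 (8.17%) were called at a limma adjusted p under 0.05, of which 175 (3.33%) rose and 254 (4.83%) fell. Counted by 1 probe set per gene, 101 of 3142 genes (3.21%) rose and 142 (4.52%) fell. The 8 h arrays lay above both 4 h arrays for 22.2% of all probe sets tested and below both for 28.8%, and the groups did not overlap for any of the 429. Over genes these shares were 22.1% and 28%.

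Of the risen probe sets 116 moved more than 2-fold and 30 more than 4-fold, and of the fallen 200 and 50. With the tested probe sets cut by brightness into 5 classes of equal size, the brightest class held 85 risen and 63 fallen, and the dimmest 17 and 41. The median change was 0.08 in the brightest class and -0.16 in the dimmest. With arrays scaled to a common median, 153 rose and 132 fell and the median change of all probe sets moved from -0.07 to 0.05. Scaled to the hybridisation controls, 47 rose and 3410 fell and the median was -1.14. The count of calls was 167 without the first 4 h array, 185 without the second, 239 without the first 8 h array and 218 without the second. With each of the 10 arrays left out in turn, 119 of the 429 were called every time, 66 risen and 53 fallen, and these are called firm below. Of 143 called probe sets named in the text, 66 were firm. In a fit of the 4 arrays alone, 70 probe sets were called in all and 37 of the 66 firm ones.

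**Figure D1:**
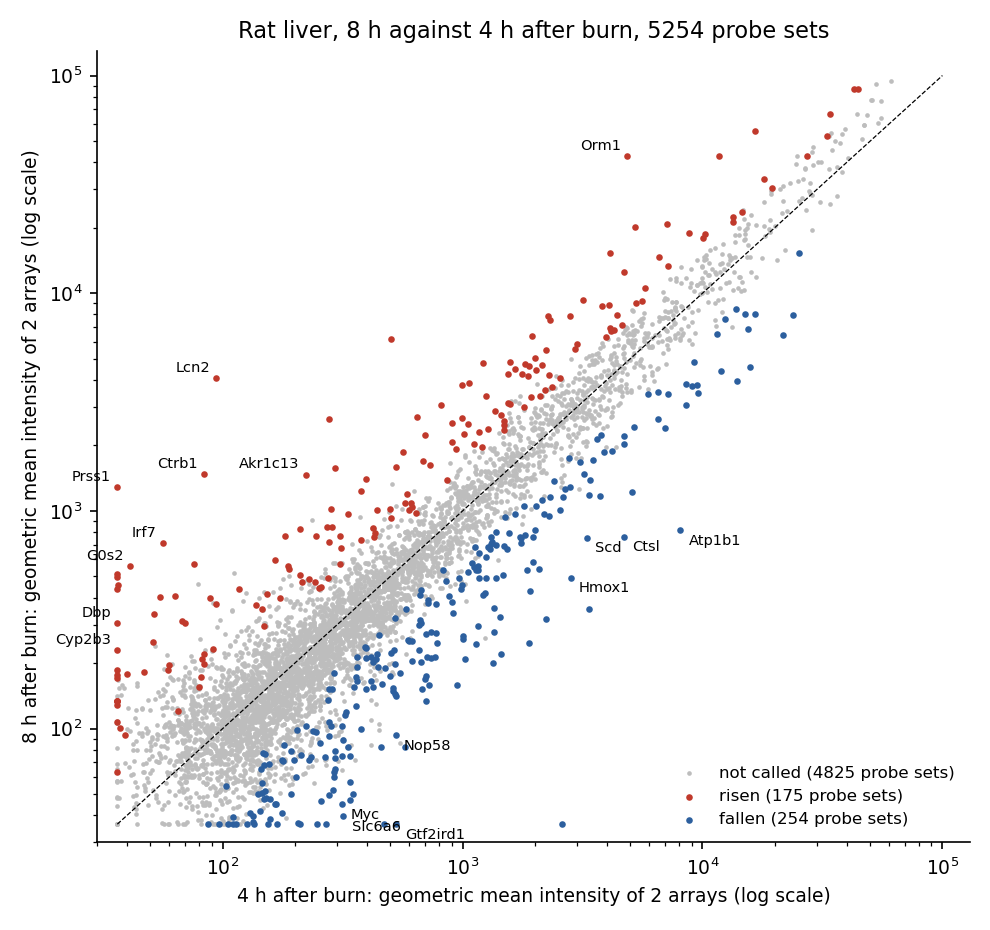
Geometric mean intensity of the 2 arrays at 8 h (vertical, log scale) against the 2 arrays at 4 h (horizontal, log scale) for 5254 probe sets, with values raised to the floor of 36.4; the dashed line marks equal values. The 175 risen probe sets (red) lie above the line and the 254 fallen (blue) below it, with Lcn2, Prss1 and Orm1 far above and Atp1b1 and Hmox1 far below.

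Among the acute phase proteins that liver raises after injury, 7 of 24 tested rose and 1 fell, with a median log2 change of 0.46 beside -0.07 for all genes. After quantile normalization 5 rose and 2 fell, with a median of 0.225 beside 0.004 for all probe sets tested. Lcn2, a secreted protein that binds the iron carriers of bacteria, read 122.1 and 72.6 at 4 h and 4129.7 and 4016.7 at 8 h. Both 8 h arrays stood far above all 8 others, of which the highest, at 24 h, read 362.1. The rise was 43.3-fold (log2 5.44, SE 0.50, adjusted p = 0.00138) and firm. Orm1, which binds drugs and dampens inflammation in plasma, read 5060.8 and 4639 at 4 h and 40688.8 and 44441.9 at 8 h. The sham and 1 h arrays read 3534.5 to 5861.2 and the 24 h arrays 11753 and 13123.7, so Orm1 was level up to 4 h and highest at 8 h. It rose 8.78-fold (log2 3.13, SE 0.17, adjusted p = 0.000133), also firm.

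The stretch before the Orm1 start is shown because it holds the one match in this gene to the glucocorticoid response element searched on either strand: G, any base, ACA, any 3 bases, TGT, any base, C. Capitals mark the match, 130 to 118 bases before the start. The 250 bases lie at chr5:81788259-81788508 on the plus strand of GRCr8, from RefSeq, as do all sequences below.
Orm1: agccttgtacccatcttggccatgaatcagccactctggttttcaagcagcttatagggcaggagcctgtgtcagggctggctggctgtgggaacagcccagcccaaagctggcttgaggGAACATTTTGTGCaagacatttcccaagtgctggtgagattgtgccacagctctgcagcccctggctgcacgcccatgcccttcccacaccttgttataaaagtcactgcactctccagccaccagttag
That motif is in 0.373% of the 33469 windows of 250 bases before a start in the RefSeq table, and in 1 risen and 1 fallen gene. A match is a run of letters and no measurement of binding. Windows were found for 2590 of the genes tested, and the motifs searched here were chosen with the results known.

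Kininogen 2 (Kng2), a precursor of kinins and a protease inhibitor, read 15289.6 and 17905.5 at 4 h and 51714.6 and 59728.2 at 8 h. Its rise of 3.36-fold (log2 1.75, SE 0.16, adjusted p = 0.00144) was firm, and the 24 h arrays lay between, at 27759.5 and 30951.9. Ceruloplasmin (Cp), the copper protein that oxidises iron in plasma, went from 7283.9 and 5976.6 to 15081.9 and 14387.1 (log2 1.16, adjusted p = 0.00657, firm). Haptoglobin (Hp), which binds free hemoglobin, went from 40811.3 and 48773.7 to 83924.3 and 89595.9 (log2 0.96, adjusted p = 0.0141). Hemopexin (Hpx), which binds free heme, went from 30389.1 and 37908.9 to 63266.2 and 69556.7 (log2 0.97, adjusted p = 0.0213). Hp and Hpx each lost the call when the first 4 h array or an 8 h array was left out (highest adjusted p 0.0788 and 0.11), and after quantile normalization (log2 0.38 and 0.49). Lipopolysaccharide-binding protein (Lbp) rose by 0.88 (adjusted p = 0.0143), a call lost without either 4 h array or either 8 h array.

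Alpha-2-macroglobulin (A2m), the large protease inhibitor of rat acute phase plasma, has 5 tested probe sets. On the dimmest, named after its values were seen, it read 17.9 and 26.9 at 4 h, both under the floor, and 131 and 126.7 at 8 h (log2 1.82, adjusted p = 0.000636, firm), a call lost with the floor at the 50th percentile. The other 4 A2m probe sets had log2 changes of 0.33 to 1.01 and were not called. At 24 h the dimmest read 723.8 and 718.1, so the 8 h arrays stood below the later ones. Angiotensinogen (Agt), the source of angiotensin, went the other way, from 18571 and 25295.2 to 6563.2 and 6257.1. It fell 3.38-fold (log2 -1.76, SE 0.20, adjusted p = 0.00335, firm), back to the range of the sham arrays, 5411.8 and 6862.3.

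Complement, the cascade of plasma proteins that marks and lyses microbes, had 7 of 14 genes tested risen and none fallen, with a median change of 0.68. With arrays scaled to a common median 5 rose, and after quantile normalization 6. In the classical branch, the protease C1s went from 1862.5 and 1347.1 to 5193 and 4505.6 (log2 1.61, SE 0.24, adjusted p = 0.00967). Its call was lost without the second 4 h array (adjusted p = 0.056) or the first 8 h array (adjusted p = 0.0542). C1r, its partner, rose by 0.69 (adjusted p = 0.0441), a call lost with any one array left out. In the alternative branch, factor D (Cfd) went from 46 and 56.8 to 247.8 and 250.9 (log2 2.29, SE 0.28, adjusted p = 0.00415, firm). Cfd is also a fat cell gene and the one member of the list of endocrine pancreas, muscle and adipose markers that rose, of 13 tested.

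C9, which forms the pore of the membrane attack complex, read 4181.2 and 4070.5 at 4 h and 15602 and 15002.6 at 8 h. No other array passed 6771.4, and the rise was 3.71-fold (log2 1.89, SE 0.20, adjusted p = 0.00247, firm). Among the inhibitors, the alpha chain of C4b-binding protein (C4bpa) went from 5041.2 and 5463.8 to 18853.6 and 21378.9 (log2 1.94, SE 0.17, adjusted p = 0.0012, firm). Its beta chain (C4bpb) rose by 0.88 (adjusted p = 0.0223) and the C1 inhibitor (Serping1) by 0.97 (adjusted p = 0.0123). The C4bpb call was lost without any one of the 4 h or 8 h arrays, and that of Serping1 without either 4 h array or the first 8 h array. With arrays scaled to a common median, the calls of C1r and C4bpb were lost. Summed over the 16 complement genes on the array, intensity was 59173 and 65251.8 at 4 h, 107702.7 and 108670.2 at 8 h, and 60480.6 to 72015.7 on the other arrays.

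By limma none of 16 clotting and fibrinolysis genes tested was called, 8 had an unadjusted p under 0.05, and their median change was 0.33. Fibrinogen beta (Fgb), a chain of the clot protein, read 19887.2 and 18690.9 at 4 h and 31218.1 and 27840 at 8 h (log2 0.61, adjusted p = 0.0511). Prothrombin (F2) read 7865.5 and 7715.6, then 11496.5 and 12062.3 (log2 0.60, adjusted p = 0.0702). Of 18 carrier proteins and others that are known to fall in the acute phase, apolipoprotein A1 (Apoa1) rose by 0.64 (adjusted p = 0.0422) and afamin (Afm), a vitamin E carrier, fell by 0.82 (adjusted p = 0.0274). That Apoa1 call, on its brighter probe set, was lost with any one array left out, and that of Afm with 6 of the 10. On its dimmer probe set Apoa1 rose by 1.11 (adjusted p = 0.0245). The median of these 18 was 0.14, and -0.07 after quantile normalization.

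On the receiving side of the cytokine signal, 5 of 23 genes tested fell and none rose, with a median change of -0.43. The interleukin-1 receptor (Il1r1) read 411.4 and 540.6 at 4 h and 24.9 and 29.1 at 8 h, both under the floor. It was at least 13-fold lower (log2 -3.70, SE 0.57, adjusted p = 0.0104), and without any one of the 4 h or 8 h arrays the adjusted p was 0.0531 to 0.0643. On another Il1r1 probe set it went from 572.1 and 577.2 to 71.5 and 95.4 (log2 -2.80, adjusted p = 0.000793), which did not pass the filter without either 4 h array. The last Il1r1 probe set was not called (log2 -1.45, adjusted p = 0.107). The interleukin-6 receptor (Il6r) went from 1029.5 and 911.2 to 474.4 and 512.3 (log2 -0.97, adjusted p = 0.0378). The kinase Jak2 (log2 -1.54), the suppressor Socs2 (log2 -1.12) and the phosphatase Ptpn1 (log2 -1.05) also fell. The calls of Il6r, Jak2, Socs2 and Ptpn1 were lost with 4 to 10 of the 10 arrays left out, and with arrays scaled to a common median. Jak2 had 1 of its 8 h arrays at the floor, and with the floor at the 50th percentile its change was -0.3. Stat3, the factor that carries the interleukin-6 signal, read 265.9 and 145.4, then 58 and 104.2 (log2 -1.34, adjusted p = 0.143), and its inhibitor Socs3 had overlapping arrays.

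**Figure D2:**
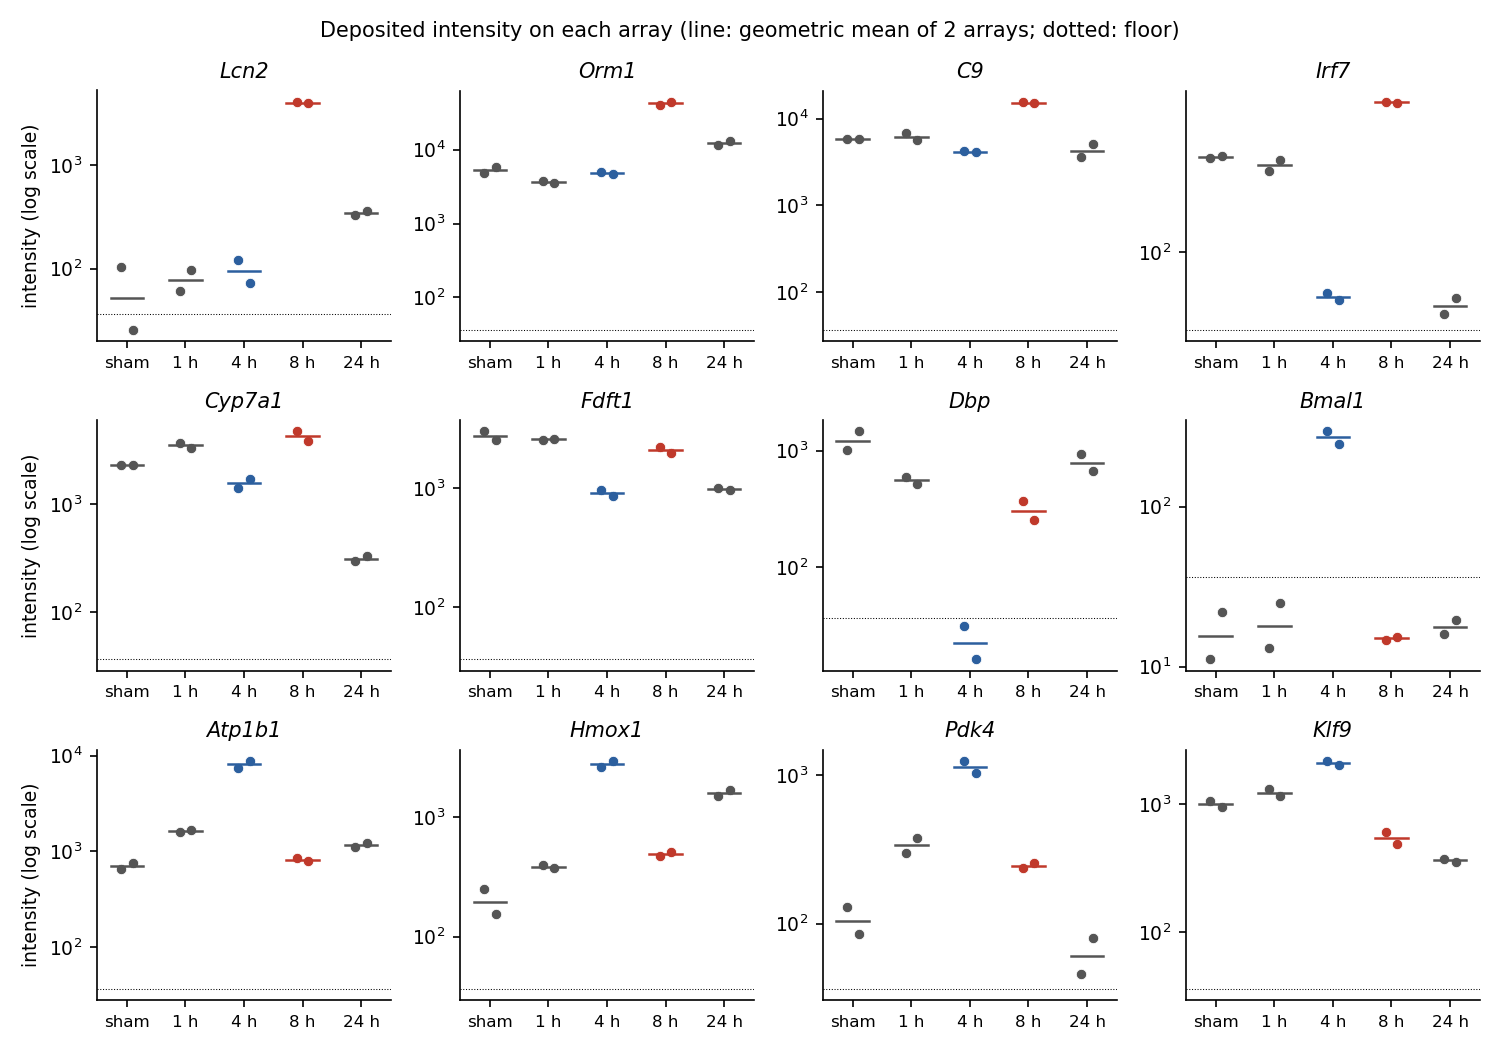
Deposited intensity (vertical, log scale) on each of the 10 arrays for 12 named genes, grouped by time (horizontal); points are arrays, short lines the geometric mean of 2 arrays and the dotted line the floor of 36.4. Lcn2, Orm1 and C9 stand highest at 8 h, Irf7, Fdft1, Cyp7a1 and Dbp rise from 4 h to 8 h, and Atp1b1, Hmox1, Pdk4, Klf9 and Bmal1 fall from a peak at 4 h.

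Irf7, the transcription factor that amplifies the interferon response, read 58.9 and 53.6 at 4 h and 714.8 and 706.8 at 8 h. The sham and 1 h arrays read 290.3 to 352.6 and the 24 h arrays 44.5 and 55.2, so Irf7 was low at 4 h, highest at 8 h and low again at 24 h. The rise was 12.7-fold (log2 3.66, SE 0.17, adjusted p = 0.000102) and firm. The dimmer Irf7 probe set read 135.5 and 147.2 at 4 h and 318.5 and 495.4 at 8 h. It was not called (log2 1.49, adjusted p = 0.0991). Psmb8, a catalytic subunit of the immunoproteasome that interferon induces, went from 920.5 and 1073.8 to 2328.3 and 3099.6 (log2 1.43, SE 0.23, adjusted p = 0.0127). Its call was lost when a 4 h array or the second 8 h array was left out. Counted by the brightest probe set of each gene, it was the one called of 19 lymphocyte and antigen presentation markers tested. The dimmer probe set of Psmb9, also on that list, rose by 0.84 (adjusted p = 0.0448), and its brighter one was not called (log2 0.39).

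The 250 bases before the Irf7 start are shown with the interferon-stimulated response element in capitals, 69 to 60 bases before the start, read here on the opposite strand of the searched form, GAAA, any 2 bases, GAAA. They lie at chr1:205800024-205800273 on the minus strand.
Irf7: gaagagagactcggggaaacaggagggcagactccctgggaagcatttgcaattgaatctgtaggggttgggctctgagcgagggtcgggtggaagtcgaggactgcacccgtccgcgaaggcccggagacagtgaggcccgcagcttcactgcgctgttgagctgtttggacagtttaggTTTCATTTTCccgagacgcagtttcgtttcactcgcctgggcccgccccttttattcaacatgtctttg
The element was in 10 of the 101 risen genes with a window (9.9%) and in none of the 149 fallen genes with one. It was in 2.82% of the genes tested and 3.41% of all windows, a description with no test. The 10, named for the match and so after their values were seen, were Irf7, Ifitm3, RT1-S3, Irgm2, Oas1a, Foxa2, Grn, Prss1, Serpinb9 and Ugt2b, and thus hold a hepatocyte factor and a pancreatic trypsin beside genes known to answer to interferon. Ifitm3, a membrane protein that restricts virus entry, went from 2080.1 and 1945 to 5475.1 and 4602.7 (log2 1.32, adjusted p = 0.00543, firm). RT1-S3, a class I histocompatibility gene, went from 545.7 and 511.6 to 1569.2 and 1614.1 on its brightest probe set (log2 1.59, adjusted p = 0.00225, firm), and its 2 other probe sets rose by 1.83 and 1.85. Class I genes are near-identical copies, so the RT1-S3 signal may come from more than 1 of them. The guanosine triphosphatase Irgm2 (log2 1.56, adjusted p = 0.0274) and Oas1a, which makes the activator of a ribonuclease (log2 0.76, adjusted p = 0.0441), rose too, calls lost with 5 and 10 of the 10 arrays left out.

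Exocrine pancreas genes had the highest median change of the 37 lists: 14 of 22 tested rose, none fell, the median change was 1.97, and 20 of the 22 had both 8 h arrays above both 4 h arrays. These encode digestive enzymes that pancreatic acinar cells make, not hepatocytes. Trypsin 1 (Prss1) read 5.7 and 4.9 at 4 h, far under the floor, and 1314.2 and 1265.1 at 8 h. The sham arrays read 1040.3 and 1038.9, the 1 h arrays 5339.9 and 4261.7, and the 24 h arrays 3.5 and 13.2, so the low at 4 h and 24 h was shared by all 4 of those arrays. At 8 h Prss1 was at least 35.4-fold higher than at 4 h (log2 5.15, SE 0.16, adjusted p = 1.55e-05), the smallest adjusted p of the named risen genes.

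Chymotrypsinogen B1 (Ctrb1) went from 78.7 and 89 to 1607.4 and 1360.3 (log2 4.14, SE 0.26, adjusted p = 0.000282). Its sham arrays, 354.8 and 577.1, lay between. Among the carboxypeptidases, Cpb1 went from 14.9 and 8.4 to 521.9 and 504.7, at least 14.1-fold higher, and Cpa1 from 57.7 and 100.3 to 532.1 and 614, 7.51-fold. Of the lipid enzymes, pancreatic lipase (Pnlip) went from 312.1 and 246.9 to 3009 and 2336.2 on its brighter probe set (log2 3.26, adjusted p = 0.000264) and phospholipase A2 (Pla2g1b) from 29.5 and 37.2 to 386.5 and 545 (log2 3.64, with 1 of the 4 h arrays at the floor). Ribonuclease (Rnase1) rose 6.4-fold, elastase (Cela2a) by 2.42, amylase (Amy2a3) by 1.92 and trypsin 2 (Prss2) by 2.17 on the log2 scale. These 10 were firm, while the calls of Prss3b, Clps, Cel and Spink1 were lost with 4 to 8 of the 10 arrays left out. Trypsins are close copies of one another, and a probe set named for one may read several.

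The summed intensity of the 26 exocrine pancreas genes on the array was 3104.7 and 2818.2 at 4 h and 15387.2 and 15621.7 at 8 h. It was 11123.4 and 11519.4 in sham, 48764.3 and 51886 at 1 h, and 2919.2 and 3593.9 at 24 h, and none of the 26 was at the floor on all 10 arrays. The 4 h and 24 h arrays were thus the lowest and the 8 h arrays somewhat above sham. The source of these transcripts was not tested, and a change in cell number cannot be told apart from a change in RNA per cell in any bulk sample here. Without the exocrine genes 411 probe sets were called, 158 risen and 253 fallen.

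**Figure D3:**
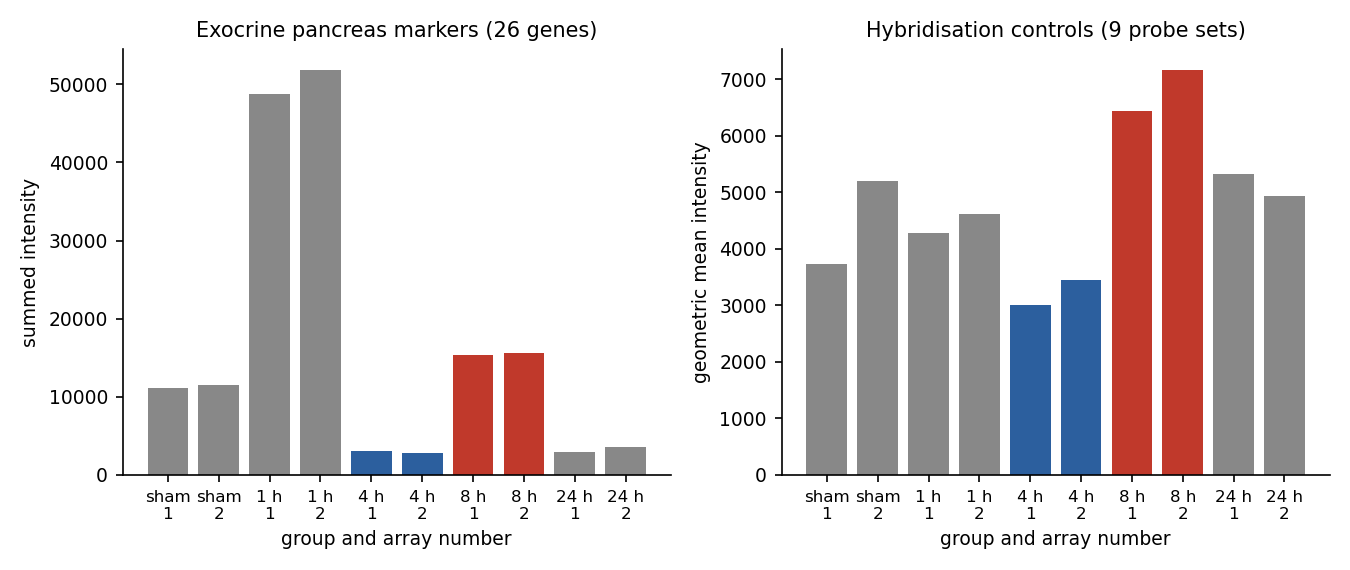
Left, summed intensity of the 26 exocrine pancreas genes on each array; right, geometric mean intensity of the 9 hybridisation controls on each array, with 4 h in blue and 8 h in red and both axes from 0. The exocrine sum is 2818.2 to 3104.7 at 4 h and 15387.2 to 15621.7 at 8 h, and the controls are lowest at 4 h and highest at 8 h.

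The 250 bases before the Ctrb1 start, at chr19:56566979-56567228 on the minus strand, are shown with 2 runs of letters searched for in acinar enzyme promoters, CACCTG and TTTCCC, in capitals. They lie 206 to 201 and 196 to 191 bases before the start.
Ctrb1: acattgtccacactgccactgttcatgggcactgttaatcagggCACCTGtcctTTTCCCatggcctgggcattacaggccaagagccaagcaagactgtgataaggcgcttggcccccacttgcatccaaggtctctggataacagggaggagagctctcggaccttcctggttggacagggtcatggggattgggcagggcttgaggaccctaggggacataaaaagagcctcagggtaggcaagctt
CACCTG is in 15.9% and TTTCCC in 22% of all windows, on either strand, so each run alone is common. They are in 18.8% and 30.7% of the risen and 15.4% and 22.1% of the fallen genes.

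In the clock, 3 of 7 genes tested fell and 1 rose, or 1 fell and 1 rose with arrays scaled to a common median or quantile normalized. Dbp, an output factor driven by the activators BMAL1 and CLOCK, read 31.2 and 16.1 at 4 h, both under the floor, and 365.7 and 255.4 at 8 h. It was at least 8.4-fold higher (log2 3.07, SE 0.28, adjusted p = 0.00131, firm), still below the sham arrays, 1007.7 and 1463, and the 24 h arrays, 932.5 and 662.6. A further Dbp probe set rose by 2.35 (adjusted p = 0.00145), a call lost with the floor at the 50th percentile. Bmal1, the activator, read 295.1 and 247.7 at 4 h and 14.7 and 15.4 at 8 h. All 8 arrays outside 4 h lay between 11.1 and 25, under the floor, so Bmal1 was measured at 4 h alone.

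Bmal1 was at least 7.43-fold lower at 8 h (log2 -2.89, SE 0.15, adjusted p = 0.000123). Without either 4 h array it did not pass the filter on dim probe sets and was not tested, and with each of the other 8 left out it was called. The repressors Nr1d1, also named REV-ERB alpha, and Bhlhe40 fell from 380.5 and 347.9 to 206.2 and 221.1 (log2 -0.77, adjusted p = 0.0379) and from 275 and 276.6 to 158.6 and 116.7 (log2 -1.02, adjusted p = 0.041). Those calls were lost with 9 and 8 of the 10 arrays left out, and with arrays scaled to a common median. On its brighter probe set, the one given here, Nr1d1 was highest in sham, 848.5 and 826, and lowest at 8 h. The dimmer Nr1d1 probe set was not called (log2 -1.41, adjusted p = 0.261). It read 137 and 56.7 at 8 h and 163.1 and 40.4 at 24 h. The labels give no hour of the day, so time after burn and time of day cannot be told apart.

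The windows before Bmal1 (chr1:176766078-176766327, plus strand) and Nr1d1 (chr10:84229455-84229704, minus strand, the one of its 2 windows with a match) are shown because each holds an element through which clock proteins are known to act on the other. Capitals mark the ROR response element (AA, any base, TAGGTCA), which REV-ERB alpha also reads, 19 to 10 bases before the Bmal1 start. In Nr1d1 they mark the E-box CACGTG, which BMAL1 and CLOCK read, 191 to 186 bases before the start.
Bmal1: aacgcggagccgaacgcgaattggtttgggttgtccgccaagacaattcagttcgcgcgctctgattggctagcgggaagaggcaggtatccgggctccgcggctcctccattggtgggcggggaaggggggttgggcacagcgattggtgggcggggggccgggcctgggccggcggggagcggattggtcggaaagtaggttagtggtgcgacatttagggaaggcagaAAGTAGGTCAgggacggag
Nr1d1: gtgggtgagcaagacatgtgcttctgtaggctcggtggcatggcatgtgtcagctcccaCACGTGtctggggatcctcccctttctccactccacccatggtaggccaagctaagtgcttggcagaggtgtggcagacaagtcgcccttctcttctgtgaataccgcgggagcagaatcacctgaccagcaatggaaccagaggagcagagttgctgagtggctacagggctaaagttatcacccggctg
The ROR element is in 0.206% of all windows, none of the risen genes and 1 of the fallen. The E-box is in 5.59% of all windows, 8.53% of the genes tested, 3.96% of the risen and 12.1% of the fallen genes with a window. The STAT motif (TTC, any 3 bases, GAA) is in 7.67% of all windows, 6.49% of the genes tested, 14.9% of the risen and 8.72% of the fallen. None of these shares was tested.

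Of 16 tested genes that glucocorticoids induce, 6 were called fallen, beside 4.52% of all genes, none was called risen and 10 were not called. The median change was -0.90. Both 8 h arrays lay below both 4 h arrays for 10 of the 16 and above them for 4, beside 28% and 22.1% of all genes. With arrays scaled to a common median, 4 fell. Klf9, a transcription factor that the glucocorticoid receptor turns on, went from 2164.2 and 2014.8 at 4 h to 603.8 and 488.2 at 8 h. Sham lay between, at 1051.4 and 952.5, and the fall was 3.85-fold (log2 -1.94, SE 0.17, adjusted p = 0.00115, firm). Igfbp1, a secreted protein that binds insulin-like growth factors and rises in fasting, went from 15098.5 and 15906.1 to 7164.7 and 6580.2 (log2 -1.17, SE 0.15, adjusted p = 0.00478, firm). Pyruvate dehydrogenase kinase 4 (Pdk4), which spares glucose, went from 1247.4 and 1031.2 to 236.8 and 254.2 (log2 -2.21, SE 0.32, adjusted p = 0.00835). Pdk4 lost the call without the first 4 h array (log2 -2.07, adjusted p = 0.0636).

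Among the rest are enzymes that open the breakdown of single amino acids. Tryptophan dioxygenase (Tdo2) went from 9068.3 and 8047.7 to 4061 and 3637.6 (log2 -1.15, SE 0.16, adjusted p = 0.00721). At 24 h it read 10094.8 and 11872.6, above every other array, and the call of the step was lost without the first 4 h array (adjusted p = 0.0537). Tyrosine aminotransferase (Tat) went from 15003 and 14988.1 to 7928.8 and 8206.4 (log2 -0.90, adjusted p = 0.0114). Got1, an aspartate aminotransferase, fell by 1.07 (adjusted p = 0.0203). The calls of Tat and Got1 were lost without 3 or 4 of the 4 h and 8 h arrays, and with arrays scaled to a common median.

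Over urea cycle and amino acid catabolism, 9 of 41 genes tested fell and 2 rose, or 2 fell and 2 rose with arrays scaled to a common median. Agxt, which clears glyoxylate through alanine, went from 8232 and 8792.9 to 3097.9 and 3026.9 (log2 -1.47, SE 0.16, adjusted p = 0.00247, firm). Glud1 (log2 -0.94), Kynu (log2 -1.19), Psat1 (log2 -1.28), Oat (log2 -0.79) and the urea cycle enzyme Arg1 (log2 -0.71) fell, each a call lost with 3 to 10 of the 10 arrays left out and with a common median. Gnmt, which spends methyl groups on glycine, rose from 7111.8 and 7223.1 to 14622.6 and 12268.9 (log2 0.90, adjusted p = 0.0181), and Bckdhb, of branched-chain amino acid breakdown, rose by 1.16 (adjusted p = 0.0181). Those 2 calls were lost with 3 and 4 of the 4 h and 8 h arrays left out.

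Of 49 solute carriers and pumps tested, 7 fell and 3 rose, with amino acid carriers on both sides. Atp1b1, the beta subunit of the sodium pump, read 7422.9 and 8808.5 at 4 h and 855.6 and 782 at 8 h. Every other array read 655.9 to 1682.6, so the 4 h arrays stood alone. It fell 9.89-fold (log2 -3.31, SE 0.17, adjusted p = 0.000122, firm). The taurine transporter Slc6a6 went from 349.2 and 291.2 to 43.2 and 16.5, with 1 of the 8 h arrays at the floor (log2 -3.01, SE 0.25, adjusted p = 0.000906, firm). The cationic amino acid transporter Slc7a2 went from 759.6 and 789.8 to 289.4 and 263.9 (log2 -1.49, adjusted p = 0.00486, firm). Slc3a2, the heavy chain of amino acid exchangers, fell by 2.13 (adjusted p = 0.0119) on its brighter probe set, a call lost with 3 arrays left out, and by 1.97 on the other, which was firm. Slc25a30, a carrier of the mitochondrial membrane, rose from 62.6 and 47.7 to 398.4 and 406.8 (log2 2.88, SE 0.29, adjusted p = 0.00202, firm), and the prostaglandin transporter Slco2a1 from 2128.3 and 1910.9 to 4404.3 and 4440.7 (log2 1.13, adjusted p = 0.00476, firm). The dimmer Slco2a1 probe set was not called (log2 0.585, adjusted p = 0.215). The glycine transporter Slc6a9 also rose, from 339.8 and 278.6 to 758.1 and 776.9 (log2 1.32, adjusted p = 0.0181), a call lost without any one of the 4 h or 8 h arrays. The other falls were of Slc16a6 (log2 -2.81), which did not pass the filter without either 4 h array, of the phosphate transporter Slc20a2 (log2 -1.13), a call lost with 3 arrays left out, and of Abcc3, given below.

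**Figure D4:**
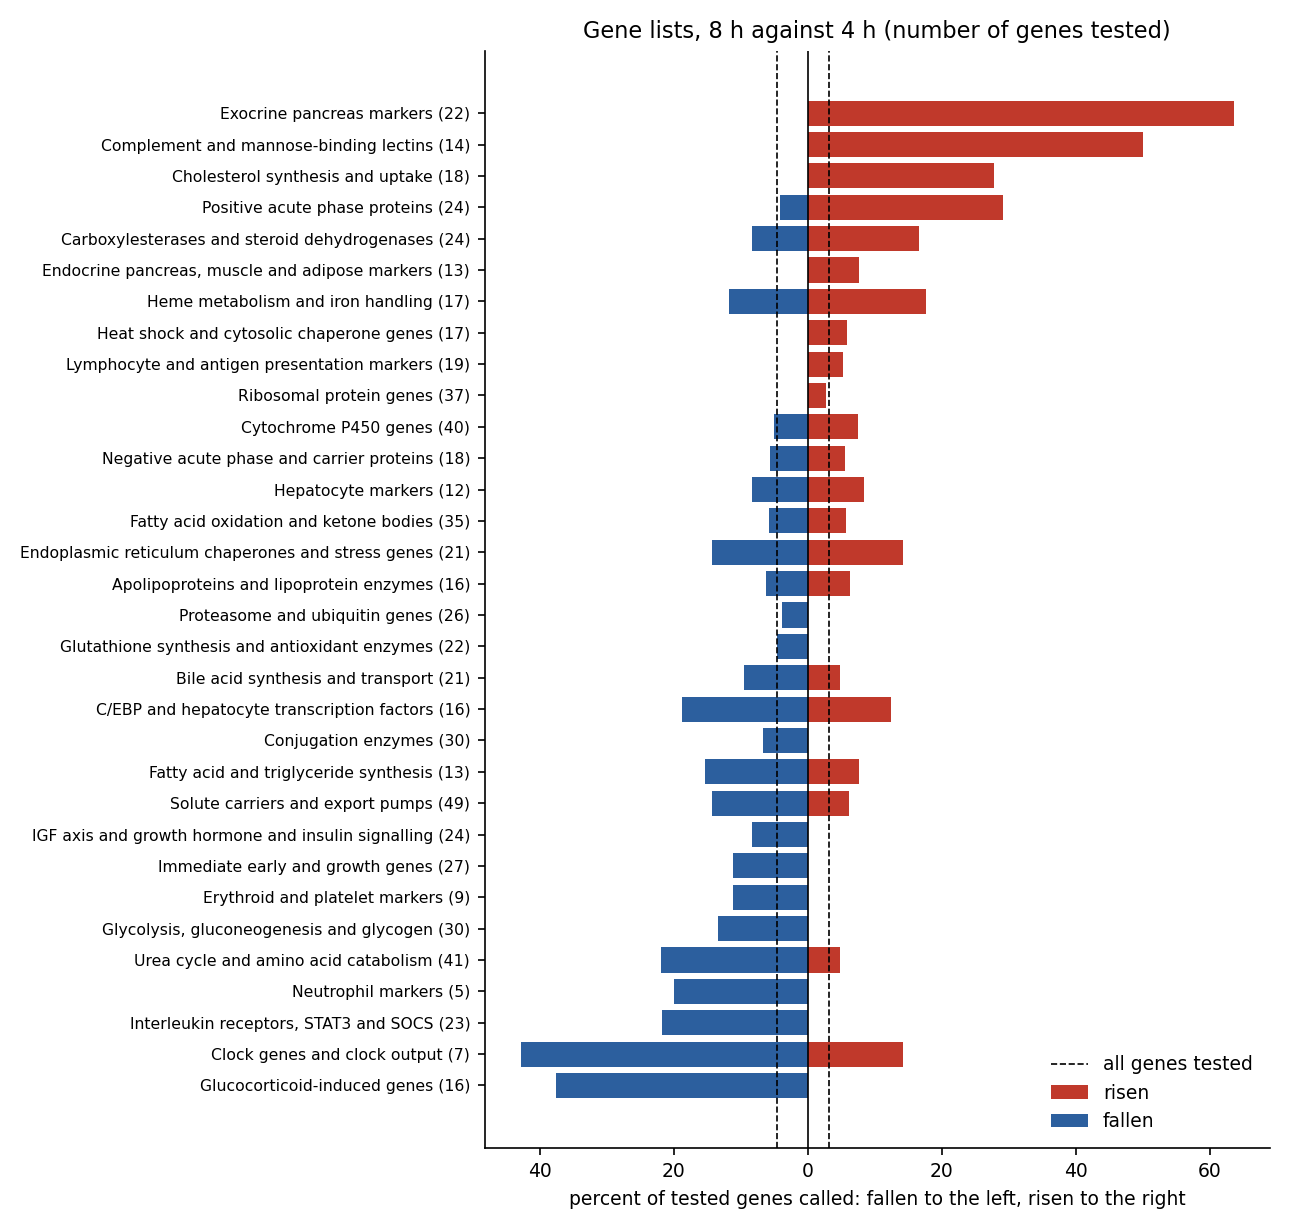
Percent of the tested genes of each list that rose (red, to the right) or fell (blue, to the left) from 4 h to 8 h, for lists with at least 1 call, with the number tested in brackets; the dashed lines mark 3.21% risen and 4.52% fallen over all genes. Exocrine pancreas and complement lists have the largest risen shares, and clock and glucocorticoid-induced genes the largest fallen shares.

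Several of the largest falls were of genes tied to growth, which were named for the size of their change and form no list. Myc, the growth factor-driven transcription factor, read 336.5 and 293.9 at 4 h and 55.2 and 33.4 at 8 h, with 1 array at the floor (log2 -2.81, SE 0.34, adjusted p = 0.00372). It was highest at 1 h, at 477 and 478. Nop58, of the particles that modify ribosomal RNA, went from 522.5 and 530.1 to 85.4 and 102.1 (log2 -2.50, SE 0.30, adjusted p = 0.00411). Gnl3, or nucleostemin, went from 1041.9 and 1001.2 to 204.1 and 213.9 (log2 -2.29, SE 0.17, adjusted p = 0.000636). Nop58 and Gnl3 were high again at 24 h, at 389.1 to 767.1, whereas Myc read 24.1 and 71.6. A second, brighter Myc probe set was not called (log2 -1.05, adjusted p = 0.145). Of 2 further Gnl3 probe sets one fell by 1.95 and the dim one was not called.

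Of 27 immediate early and growth genes tested, 3 fell, none rose and the median was -0.54. Gadd45a, a stress gene that halts division, went from 1265.7 and 1231 to 517.2 and 470.8 (log2 -1.34, adjusted p = 0.00335, firm). Egr1 fell by 0.93 (adjusted p = 0.0154), a call lost with 3 of the 4 h and 8 h arrays left out, and Klf9 is given above. Another Egr1 probe set fell by 1.34 (adjusted p = 0.0169), and the rest had overlapping arrays. Cited2, a regulator of the coactivators CBP and p300, went from 1548.4 and 1353.3 to 234.5 and 205.8 (log2 -2.72, SE 0.22, adjusted p = 0.0009) on its brightest probe set. The other 2 Cited2 probe sets gave -1.62, called, and -0.68, with overlapping arrays.

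Further large falls came from genes of mixed roles, all firm. The transcription factor Gtf2ird1 went from 595.1 and 472.4 to 6.6 and 8.7, at least 14.6-fold lower, although its other probe set was not called (log2 -2.09, adjusted p = 0.212). Sephs2, which makes the selenium donor for selenoproteins, went from 2217.9 and 2251.4 to 318 and 317.2 (log2 -2.81, SE 0.17, adjusted p = 0.000222), below sham, 662.4 and 718.1. The lysosomal protease Ctsl went from 4858.6 and 4580.3 to 801.9 and 725.6 (log2 -2.63, SE 0.16, adjusted p = 0.000264), also below sham, 1664.6 and 1360. The brighter Ctsl probe set was not called (log2 -0.50, adjusted p = 0.121). Zfp354a (log2 -2.47), the atypical kinase Mapk6 (log2 -2.40) and the guanosine triphosphatase Rhob (log2 -2.18) fell as well, from 260.1 or more at 4 h to 184.7 or less at 8 h on every array.

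Among hepatocyte transcription factors, 2 of 16 rose and 3 fell. Foxa2, which opens chromatin at liver genes, went from 83.5 and 94.3 to 381.9 and 418.7 (log2 2.17, SE 0.21, adjusted p = 0.00145, firm). Foxa3, its relative, went from 709.4 and 704.8 to 175 and 174.2 (log2 -2.02, SE 0.24, adjusted p = 0.0034, firm). At 24 h Foxa2 read 121.7 and 161.7 and Foxa3 1203.1 and 1069.6. Cebpb, which drives acute phase genes, went from 3365 and 3649.7 to 1814.6 and 1611.7 (log2 -1.04, adjusted p = 0.0139), and Hnf4a fell by 0.87 (adjusted p = 0.04). The calls of Cebpb and Hnf4a were lost with 3 and 10 of the 10 arrays left out and with a common median. Dbp, given above, also rose.

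Of 18 cholesterol synthesis and uptake genes tested, 5 rose, beside 3.21% of all genes, none fell and 13 were not called. The median change was 0.52, and with arrays scaled to a common median 3 rose. Fdft1, squalene synthase, read 968.7 and 849.5 at 4 h and 2201.9 and 1955.7 at 8 h (log2 1.19, SE 0.16, adjusted p = 0.00638, firm). Sham and 1 h arrays read 2545.6 to 2988.2 and 24 h arrays 1000 and 957.6, so Fdft1 was low at 4 h and at 24 h. Of its 3 dimmer probe sets 1 was called (log2 1.57). Msmo1, a sterol methyl oxidase, went from 1334.1 and 741.8 to 4394.2 and 3233.9 (log2 1.92, adjusted p = 0.0116), and lost the call without the first 8 h array (adjusted p = 0.0611). Acly, which makes cytosolic acetyl-CoA for sterols and fatty acids, went from 1404.8 and 1324.3 to 3040.6 and 2707.6 (log2 1.07, adjusted p = 0.00796), and lost the call without the second 4 h array (adjusted p = 0.051). The dimmer Acly probe sets were not called (log2 0.59 and 1.10). The isomerase Ebp (log2 0.93) and the demethylase Cyp51 (log2 0.68) rose. Those calls were lost with 5 and 10 of the 10 arrays left out, and with arrays scaled to a common median.

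Of 21 bile acid genes, the one that rose was Cyp7a1, the rate-limiting enzyme of bile acid synthesis. It read 1405.9 and 1708.8 at 4 h and 4700.9 and 3832.9 at 8 h, against 293.8 and 326.4 at 24 h. The rise was 2.74-fold (log2 1.45, SE 0.18, adjusted p = 0.00436) and firm, and the 24 h arrays stood lowest of all. The export pump Abcc3 (4.01-fold, adjusted p = 0.02) and the side chain oxidase Acox2 (log2 -0.88, adjusted p = 0.0334) fell, calls lost with 4 and 7 of the 10 arrays left out.

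In fat metabolism the members moved both ways. G0s2, which blocks the main triglyceride lipase, read 23.1 and 46.7 at 4 h and 575.2 and 544.5 at 8 h (log2 3.76, SE 0.18, adjusted p = 0.000102, firm), with 1 of the 4 h arrays at the floor. All other arrays lay between 292.7 and 426.7, so the 4 h arrays were the low ones. Scd, which desaturates fatty acids, went from 3241.5 and 3349.7 to 709.1 and 801 (log2 -2.13, SE 0.17, adjusted p = 0.0009, firm), the lowest of any time on this, the brighter of its 2 probe sets. Acaa1b, the peroxisomal thiolase, went from 639.4 and 738.9 to 1700.5 and 1707.5 (log2 1.31, adjusted p = 0.00618, firm).

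Hepatic lipase (Lipc) fell from 2424.1 and 2151.7 to 1065.6 and 843.3 (log2 -1.27, adjusted p = 0.00791), and lost the call without the first 4 h array (adjusted p = 0.0581). Me1, which makes NADPH for fat synthesis, fell by 0.93 and Cyp4a8, a fatty acid hydroxylase, by 1.00, while the isomerase Eci1 rose by 0.67. Those 3 calls were lost with 8 to 10 of the 10 arrays left out. Etfdh, which feeds fat oxidation into the respiratory chain, has 3 probe sets that disagreed. It fell by 2.15 on the dimmest, firm, by 0.77 on the brightest, not firm, and had overlapping arrays on the last. Over the lists, 2 of 35 fatty acid oxidation genes rose and 2 fell, and 1 of 13 fatty acid synthesis genes rose and 2 fell. By limma none of 40 mitochondrial electron transport genes tested was called and 5 had an unadjusted p under 0.05, Cox6c the nearest (log2 0.86, adjusted p = 0.0553).

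Of 30 glycolysis and glucose genes, 4 fell and none rose. Aldoa went from 1232.8 and 1276.3 to 595.1 and 633 (log2 -1.03, adjusted p = 0.00631, firm), near sham, 546.3 and 547.6. The liver pyruvate kinase Pklr went from 242.4 and 331.5 to 110.6 and 95.8 (log2 -1.46, adjusted p = 0.0106), and lost the call without the second 4 h or the second 8 h array (adjusted p = 0.0574 and 0.0597). Gckr, which holds glucokinase in the nucleus, fell by 0.77 (adjusted p = 0.023), a call lost without any one of the 4 h or 8 h arrays, and Pdk4 is given above. Of 24 genes of the insulin-like growth factor axis, Igfbp1 and Socs2 fell, and of 16 apolipoproteins and lipoprotein enzymes Apoa1 rose and Lipc fell.

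Of 17 heme and iron genes tested, 3 rose, 2 fell and 12 were not called, with a median change of 0.07. The risen were Hp, Hpx and Cp, given above, and the fallen Hmox1 and Alas1. Hmox1, heme oxygenase, which degrades heme, read 2663.1 and 2983.7 at 4 h and 469.9 and 516 at 8 h on its dimmer probe set, and 4919.4 and 5303.9, then 1319.3 and 1131.3, on its brighter one. Sham read 154.2 to 249.1 on the dimmer and 24 h 1518.1 and 1714, so 8 h was a dip between high times, still above sham. The falls were 5.72-fold (log2 -2.52, SE 0.24, adjusted p = 0.00145) and 4.18-fold (log2 -2.06, adjusted p = 0.00347), both firm. Alas1, the first enzyme of heme synthesis in most tissues, fell from 6788.5 and 6248.7 to 3178.6 and 2179.7 (log2 -1.31, adjusted p = 0.041), a call lost with 8 of the 10 arrays left out and with a common median. Its erythroid counterpart Alas2 was not called (log2 -0.20, adjusted p = 0.594). Summed, the erythroid and platelet markers were 40841.6 and 45391.5 at 4 h and 41544.2 and 48811.7 at 8 h. Of 22 glutathione and antioxidant genes tested, Hmox1 alone was called.

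Steroid, drug and aldehyde enzymes changed one by one. Akr1c13, an aldo-keto reductase, went from 254.4 and 193.3 to 1489.1 and 1448.8 (log2 2.73, SE 0.23, adjusted p = 0.000961), above every other array. Adh4, a retinol and alcohol dehydrogenase, went from 398.3 and 356.5 to 1243.8 and 1230 (log2 1.72, SE 0.15, adjusted p = 0.001). Hsd17b2, which inactivates estradiol and testosterone, went from 597.6 and 810.2 to 2285.3 and 2188.8 (log2 1.68, adjusted p = 0.00247), still under sham, 7878.4 and 8249.3. Hsd3b5 rose by 1.98 (adjusted p = 0.00436), whereas the carboxylesterase Ces1c fell from 14231.9 and 13723.4 to 4589.6 and 3372.3 (log2 -1.83, adjusted p = 0.00225). These 5 were firm, and Ces1d fell by 2.20 (adjusted p = 0.0471), a call lost with 9 of the 10 arrays left out. In the list, 4 of 24 rose and 2 fell.

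In the cytochrome P450 list, which also holds the reductase Por, 3 of 40 genes tested rose and 2 fell, beside 3.21% and 4.52% of all genes. Cyp2b3 read 8.9 and 12.5 at 4 h and 227.8 and 231 at 8 h, at least 6.3-fold higher (log2 2.66, SE 0.20, adjusted p = 0.000726, firm), on the dimmest of its 3 probe sets. The brightest, which stands for the gene in the list count, read 10049 and 10826.7, then 10434.7 and 9894.4, and was not called. On the dimmest the 1 h and 24 h arrays also lay under the floor, while sham read 293.5 and 435.5. Cyp2c6v1 rose by 0.86 and Por, the reductase that serves the P450 enzymes, fell by 1.07, calls lost with 9 and 8 of the 10 arrays left out. Among 30 conjugation enzymes, Gstm2 fell from 8907.8 and 9112.6 to 3596.3 and 3930.8 (log2 -1.26, adjusted p = 0.00416, firm) and Gstp1 by 1.24 (adjusted p = 0.0311), a call lost with 9 left out. The dimmer Gstp1 probe set was not called (log2 0.19, adjusted p = 0.726). Gsto1 rose by 0.86 on its dimmer probe set (adjusted p = 0.039) and was not called on its brighter one (log2 0.53, adjusted p = 0.0915).

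Of 21 endoplasmic reticulum genes tested, 3 rose, 3 fell and 15 were not called. The translocon and glycosylation subunits Ssr4 (log2 0.73), Rpn1 (log2 1.04) and Rpn2 (log2 0.68) rose and Ssr3 (log2 -1.24) fell, none of them firm. The other Ssr4 probe sets were not called (log2 0.45 and -0.31). The chaperone Erp29, which is not in this list, rose and is given below. The stress sensor kinase Eif2ak3 went from 186.6 and 149.1 to 41.2 and 49.5 (log2 -1.89, adjusted p = 0.00669), and the chaperone Dnajb9 from 387.1 and 271.7 to 122.8 and 109.1 (log2 -1.49, adjusted p = 0.0223). Eif2ak3 did not pass the filter without either 4 h array and lost its call with the floor at the 50th percentile (log2 -0.46), and Dnajb9 lost its call with 3 arrays left out. By the brightest probe set of each gene, 1 of 17 heat shock genes (Hsph1, log2 0.80) and 1 of 26 proteasome and ubiquitin genes (Ube2b, log2 -0.79) were called. Of 37 ribosomal protein genes Rps29 alone was called (log2 0.74). The calls of Hsph1, Ube2b and Rps29 were lost with 6 to 10 of the 10 arrays left out. The dimmer probe set of the proteasome gene Psme1 rose by 0.65 (adjusted p = 0.0355), and its brighter one was not called (log2 0.59). Ribosomal protein genes had a median of 0.05.

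Few markers of other liver cells were called. By limma none of 11 Kupffer cell and phagocyte markers, 20 endothelial, stellate and fibroblast markers and 8 cholangiocyte markers tested was called, and 3, 4 and 0 of them had an unadjusted p under 0.05. The Kupffer lectin Clec4f came nearest, at 630.4 and 684.9, then 942 and 1016.1 (log2 0.57, adjusted p = 0.0554). The neutrophil receptor Cxcr2 fell from 109.1 and 154.3 to 46.3 and 19.4 (log2 -1.66, adjusted p = 0.0262) and the red cell membrane protein Epb41 from 241.9 and 167.7 to 56.5 and 63 (log2 -1.76, adjusted p = 0.0225). Cxcr2 was the one called of 5 neutrophil markers tested, with 1 of its 8 h arrays at the floor. The Cxcr2 call was lost without any one of the 4 h or 8 h arrays. With the floor at the 50th percentile its change was -0.17. The Epb41 call was lost without either 8 h array, and the probe set did not pass the filter without either 4 h array. Summed Kupffer markers were 10081.5 and 10345.5 at 4 h and 12629.9 and 12275.8 at 8 h, and summed neutrophil markers 1143.9 and 1695.8, then 834.8 and 1217, with 1 of 10 neutrophil markers at the floor on all arrays.

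How the genes of the step stood at 24 h was read against sham, in 4 arrays that the step did not use, although one estimate of the spread served both. Of the 175 risen probe sets, 60 (34.3%) were lower at 24 h than in sham and 19 (10.9%) higher, beside 6.4% lower and 3.96% higher of all tested. Of the 254 fallen, 55 (21.7%) were higher and 24 (9.45%) lower. The median log2 difference of 24 h from sham was -0.38 for the risen, 0.27 for the fallen and -0.05 for all. Without the exocrine pancreas genes, 48 risen probe sets were lower and 19 higher. Leaving out any one array gave 35 to 47 lower and 9 to 15 higher among the risen, and 21 to 40 higher and 7 to 13 lower among the fallen. With arrays scaled to a common median, 29 of the fallen were higher and 4 lower.

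At 24 h 3 of the risen acute phase proteins stood above sham. Lcn2 was higher by 2.49 (adjusted p = 0.0244), Orm1 by 1.23 (adjusted p = 0.00601) and Kng2 by 1.00 (adjusted p = 0.012). Lower at 24 h were Irf7 (log2 -2.81, adjusted p = 0.000277), Cyp7a1 (log2 -2.89, adjusted p = 0.00029), Adh4 (log2 -2.47, adjusted p = 0.000273) and Fdft1 (log2 -1.50, adjusted p = 0.00251). Among the fallen, Hmox1 (log2 3.04, adjusted p = 0.000683), Tdo2 (log2 2.14, adjusted p = 0.000618) and Foxa3 (log2 1.75, adjusted p = 0.00538) were higher at 24 h, whereas Klf9 (log2 -1.46, adjusted p = 0.00324) and Igfbp1 (log2 -1.65, adjusted p = 0.00108) were lower. Atp1b1 was higher by 0.73 (adjusted p = 0.0369) and Myc lower (log2 -1.52, adjusted p = 0.0325), while Pdk4, Cited2 and G0s2 were not called.

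**Figure D5:**
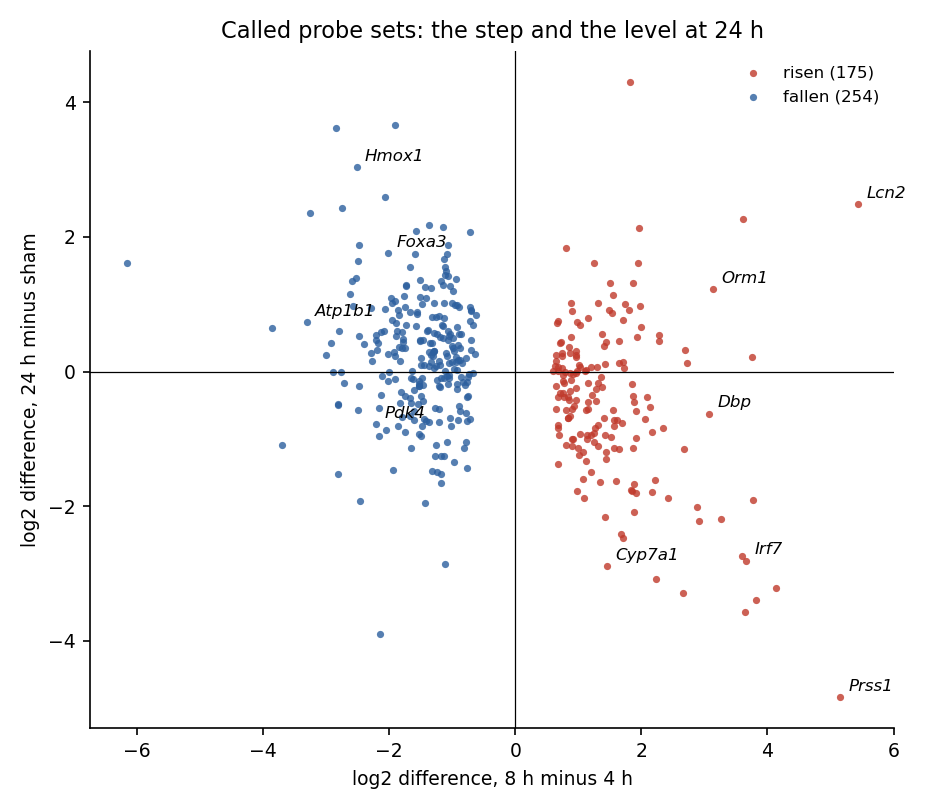
Log2 difference of 24 h from sham (vertical) against log2 difference of 8 h from 4 h (horizontal) for the 175 risen (red) and 254 fallen (blue) probe sets; each point is 1 probe set. Irf7, Cyp7a1 and Prss1 lie at the lower right, Lcn2 and Orm1 at the upper right and Hmox1 and Foxa3 at the upper left.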

How the data were processed

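Total RNA of 10 rat liver samples was measured on 1-colour oligonucleotide arrays of 8799 probe sets. The deposited values are linear intensities that the authors had scaled, as the values show, to one trimmed mean per array (2% removed at each end). No source used here names the software that made them. Of the probe sets 7018 had 1 gene symbol in the platform's annotation, 308 several and 1473 were not listed there.

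Values were raised to a floor of 36.4, the median of the arrays' 25th percentiles, and put on the log2 scale. A probe set entered the test if it exceeded its array's median on 2 or more arrays, and 59 control probe sets were left out. The contrast of 8 h with 4 h was taken from a limma 3.58.1 model (R 4.3.3) of 5 group means over all 10 arrays, with 5 residual degrees of freedom, two-sided, called at a Benjamini-Hochberg adjusted p under 0.05. A gene in a list is represented by its brightest probe set. The precision is limited by 2 arrays per group. The 2 arrays of a group correlated at 0.9478 to 0.9548 and shared 8 to 24 identical values, so none is a copy.

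The genes described are the 15 largest firm rises and falls and, of each of 37 lists, the called genes and up to 4 with the smallest p. Each of the largest was ranked by its probe set with the largest change. The members and lists were chosen with earlier results of these data known. The test was checked on simulated data. Alternatives were quantile normalization, other floors, no filter, a variance trend, a replicate block, the 4 arrays alone, plain probe set designs and each array left out. Other scalings, testing the controls and leaving out exocrine genes were chosen after seeing the data. Promoter windows came from the RefSeq table of GRCr8, matched by symbol and searched for 7 motifs on both strands.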

Additional observations from a re-analysis of the deposited data

Results flagged for a closer look

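For 15 probe sets the 4 h arrays lay on one side of sham and the 8 h arrays on the other, each difference being called. Changes here are log2 values of 8 h minus 4 h. Below sham at 4 h and above it at 8 h were Ctrb1 (4.14), both Pnlip probe sets (3.77 and 3.26), Irf7 (3.66) and the endoplasmic reticulum chaperone Erp29 (1.72). Erp29 read 1135.3 and 982.2 in sham, 608.7 and 528.7 at 4 h and 1883.7 and 1850.7 at 8 h. Above sham at 4 h and below it at 8 h were Slc6a6 (-3.01), Sephs2 (-2.81), Ctsl (-2.63), the second Mapk6 probe set (-2.28) and Klf9 (-1.94).

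The other 5 have no single gene symbol in the annotation used here. The largest fall of them (-6.16) went from 2725.2 and 2483.1 at 4 h to 8.1 and 8.8 at 8 h, under the floor, and read 3116.7 and 3397.2 at 24 h. The 4 that rose did so by 3.62, 3.59, 1.96 and 1.8. The rise of 3.62 went from 438.8 and 577.9 to 5612.2 and 6809.6. The rise of 3.59 went from 19.2 and 22.8, under the floor, to 458.8 and 419.1.

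Outside the genes tested, the 9 hybridisation controls were higher at 8 h than at 4 h by a median of 1.07 on the log2 scale.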

How the results depend on the processing

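The counts below are, in order, the probe sets called from 4 h to 8 h, then the risen ones higher and lower at 24 h than in sham, and the fallen ones higher and lower. The reported values were 429, 19, 60, 55 and 24. With an intensity trend and robust variance they were 672, 42, 121, 93 and 51. In a fit of the 4 arrays alone they were 70, 3, 12, 5 and 0, and 980 probe sets had an unadjusted p under 0.05; of the 70, 66 were among the 429. With plain probe set designs only, which test 3378 probe sets, they were 240, 13, 32, 30 and 15. With arrays scaled to a common median they were 285, 17, 43, 29 and 4, and with the hybridisation controls 3457, 6, 21, 59 and 147. Leaving out 1 array at a time gave 167 to 373, 9 to 15, 35 to 47, 21 to 40 and 7 to 13, the lowest count of calls without the first 4 h array. Quantile normalization, either other floor, no filter, the controls tested too and no exocrine genes kept every count within 1.5 times. Apart from the constructions named, the cause was not tested.

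Of 143 called probe sets named, none changed direction, and a few mentioned beside them were not followed. The call ended for 23 after quantile normalization, 39 with a common median, 16 with no filter, 6 with the highest floor (50th percentile) and 100 in the fit of the 4 arrays. The labels' arrays share numbers, but deviations of same-numbered arrays at 4 h and 8 h correlated at only 0.15 (0.01 to 0.17 over the 10 pairs of groups). With the replicate number as a block 427 probe sets were called, 380 of them among the 429, with 19 and 63 of the risen and 56 and 20 of the fallen. With 2 arrays per group and intensities alone, signal near the floor limits what dim probe sets can show.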
